A study of Homo sapiens with 24 samples.

Results

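HAR123 is a human accelerated region, a short conserved enhancer inside the SMG6 gene on chromosome 17. The comparison described here asked which genes differ in human embryonic stem cells (hESCs) when the chimpanzee or the mouse ortholog of HAR123 occupies the place of the human sequence, rather than nothing. It took 9 of the 24 bulk RNA-seq libraries of the study. On one side stood 6 replacement libraries, 3 from cHAR123 cells (human HAR123 replaced by the chimpanzee ortholog) and 3 from mHAR123 cells (replaced by the mouse ortholog). On the other side stood 3 libraries from HAR123-KO cells, in which HAR123 was deleted. All cells were H9, one established hESC line, kept undifferentiated (day 0) and edited with CRISPR-Cas9. The hHAR123 cells (unedited H9, labelled WT, 3 libraries) are given as a level only, and neuroectoderm of the same genotypes (day 5 of differentiation with Noggin and SB431542) serves as a second set of libraries. Each genotype was represented by a pair of clones. The clone behind each library is not stated in the sources used here, so genotype and clone cannot be told apart. The labels do not say that the libraries of a group came from separate cultures, so p-values measure the spread between these libraries, which may be technical.

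Enhancers are stretches of DNA that raise transcription of genes on the same chromosome. Pluripotent stem cells are held in their state by transcription factors such as POU5F1, NANOG and SOX2, and by activin and FGF signals from the medium. Their shape and adhesion depend on the actin cytoskeleton, whose genes are controlled in part by SRF (serum response factor), which binds a DNA motif called the CArG box, and by YAP, the effector of the Hippo pathway.

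The 9 libraries held 23334732 to 34492989 counts each, of which 4.29% to 4.48% came from mitochondrial genes. Libraries of one genotype lay 16.5 to 18.8 apart (Euclidean distance on log2(CPM + 1) over 16613 genes, CPM being counts scaled to a common library total). HAR123-KO libraries lay a mean of 25.6 from cHAR123 and 24.3 from mHAR123 libraries, and cHAR123 and mHAR123 libraries lay 21.1 from each other. All 28 core pluripotency markers were tested, and their summed level was 14082 to 14409 CPM in HAR123-KO and 13424 to 13972 CPM in the replacements. Summed markers of other lineages were lower, given here as CPM in HAR123-KO and then in the replacements. The 22 early neural ectoderm genes had 597 to 622 and 546 to 580. The 15 of trophectoderm and amnion had 346 to 358 and 338 to 353, and the 16 of neural crest 207 to 209 and 202 to 226. The 18 of primitive streak and mesoderm had 121 to 129 and 116 to 120, and the 13 of endoderm 8.79 to 10.9 and 6.32 to 8.23. As for core pluripotency, HAR123-KO sums lay above every replacement library for early neural ectoderm, mesoderm and endoderm, which was not tested. Within the endoderm list, SOX17, FOXA1, TTR and APOA2 had 3 counts or fewer in all 9 libraries. Of the 5 endoderm genes tested, AFP was lower in the replacements at adjusted p under 0.01 (log2 fold change -0.85 ± 0.19). By that rule 4.67% of all genes tested were lower.

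Few genes differed by much. A gene was called when its adjusted p was under 0.01 and its log2 fold change (replacements relative to HAR123-KO) was over 1 in size, with edgeR's quasi-likelihood test and Benjamini-Hochberg adjustment. Of 21432 genes tested, 41 (0.191%) were called, 20 higher (0.0933%) and 21 lower (0.098%) in the replacements. Of the 41, 28 code for protein, 7 are long noncoding RNAs and the other 6 are pseudogenes. The levels were low, since 25 had a mean under 1 CPM over the 9 libraries, among them 15 of the 20 higher and 10 of the 21 lower genes. The replacement and HAR123-KO libraries did not overlap in CPM for 39 of the 41, against 16.2% of all genes tested. Just short of the fold threshold lay ENSG00000287527 at 0.99 and LINC00824 at -0.98, and just past it GJD2 at -1.03 and ASPG at 1.04.

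Adjusted p alone passed 1760 genes (8.21%), 759 higher (3.54%) and 1001 lower (4.67%). The counts fell to 302 and 391 without HAR123-KO replicate 2 and to 402 and 514 without HAR123-KO replicate 1. The median size of these 1760 log2 fold changes was 0.20, and 89.0% were under 0.5. These small differences moved with the GC content of the genes. With genes ordered by GC content and divided into 5 equal bins, in the highest bin 437 were higher and 41 lower, and in the lowest bin 27 were higher and 366 lower. The median log2 fold change went from -0.06 in the lowest to 0.09 in the highest bin. Of the 20 called genes that were higher, 13 were in the highest GC bin. The trend also varied between libraries of one genotype. The difference between the highest and lowest bin ran from -0.13 to -0.02 (log2) in the 3 HAR123-KO libraries, from -0.01 to 0.14 in cHAR123 and from 0.00 to 0.13 in mHAR123. With the trend of each library taken out, 588 genes were higher and 963 lower at the same adjusted p, and 16 and 20 passed both thresholds, 33 of them among the original 41.

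**Figure D1:**
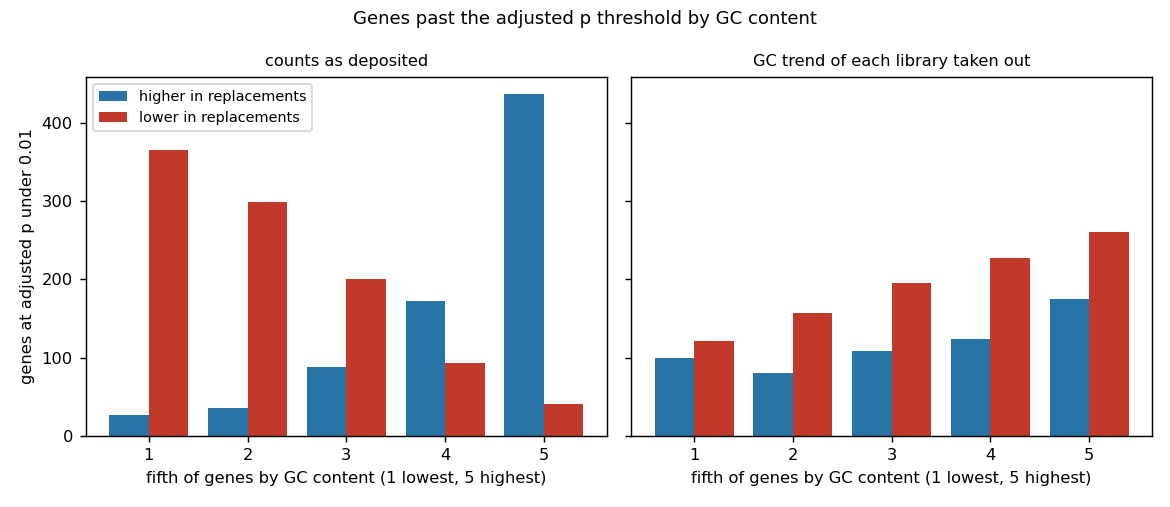
Number of genes at adjusted p under 0.01 (vertical axis) by GC bin, lowest to highest (horizontal axis), higher (blue) or lower (red) in the replacements. With the counts as deposited (left) the highest bin held 437 higher and 41 lower genes. With the GC trend of each library taken out (right) it held 175 and 261.

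The promoters of the genes that carry the next results are shown first. RefSeq promoter windows (GRCh38.p14) were matched by symbol, which found 26 of the 34 called genes that have a symbol. Printed are up to 250 bases before the start of transcription, without bases inside the gene as annotated in the deposited table. CG dinucleotides, the sites of DNA methylation, are in capitals. ZNF717 had almost no counts in HAR123-KO. PIM2 and SLC35A2 are called neighbours on the X chromosome, and OTUD5 is a neighbour that was not called.
ZNF717, chr3:75785584-75785799, minus strand: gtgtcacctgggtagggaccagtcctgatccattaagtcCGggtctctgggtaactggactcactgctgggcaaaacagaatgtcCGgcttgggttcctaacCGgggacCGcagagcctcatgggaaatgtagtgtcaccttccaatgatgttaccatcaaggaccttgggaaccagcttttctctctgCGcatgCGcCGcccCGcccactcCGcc
PIM2, chrX:48919025-48919274, minus strand: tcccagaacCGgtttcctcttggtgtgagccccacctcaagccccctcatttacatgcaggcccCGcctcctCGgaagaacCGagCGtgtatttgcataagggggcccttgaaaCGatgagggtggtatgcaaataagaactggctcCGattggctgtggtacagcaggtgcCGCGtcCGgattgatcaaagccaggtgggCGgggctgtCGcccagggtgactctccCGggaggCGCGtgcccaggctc
SLC35A2, chrX:48911959-48912208, minus strand: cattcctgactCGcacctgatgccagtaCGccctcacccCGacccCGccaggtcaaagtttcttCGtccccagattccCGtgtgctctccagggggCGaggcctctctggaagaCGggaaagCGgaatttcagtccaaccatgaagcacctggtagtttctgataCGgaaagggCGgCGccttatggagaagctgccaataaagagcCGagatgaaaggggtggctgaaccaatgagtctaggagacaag
OTUD5, chrX:48958387-48958631, minus strand: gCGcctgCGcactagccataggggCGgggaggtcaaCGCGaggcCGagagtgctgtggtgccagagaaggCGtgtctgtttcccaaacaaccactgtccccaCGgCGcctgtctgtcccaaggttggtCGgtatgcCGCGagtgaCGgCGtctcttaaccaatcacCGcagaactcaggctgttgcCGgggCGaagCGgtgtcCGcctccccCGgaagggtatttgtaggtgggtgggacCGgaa
The 250-base windows held 12 (ZNF717), 15 (PIM2), 13 (SLC35A2) and 21 (OTUD5) CG dinucleotides, against a median of 11 over 35116 promoter windows of the same length. At least as many as in PIM2 were found in 42.9% of all windows and at least as many as in OTUD5 in 30.2%.

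ZNF717, a KRAB zinc finger gene of chromosome 3 (ENSG00000227124, chr3:75678660-75785583, minus strand), had the largest difference. The HAR123-KO libraries had 1, 1 and 3 counts. The replacements had 17.8, 19.3 and 20.9 CPM (lowest, median and highest of 6). The groups were fully apart, with hHAR123 at 14.7 to 17.9 CPM beside the replacements. The pooled counts, 5 in HAR123-KO and 3393 in the replacements, gave a depth-scaled ratio of 329, with an exact 95% interval of 141 to 1015 that covers counting error only (adjusted p = 2.9e-24, edgeR). Neuroectoderm libraries gave the same contrast, with 0.04 to 0.21 CPM in HAR123-KO and 25.5 to 28.8 CPM in the replacements. ZNF717 has near-identical copies in the genome, whose reads counting may not keep apart, so its level is uncertain. It lies on another chromosome than HAR123.

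The other genes higher in the replacements with a symbol and a mean of at least 1 CPM were ASPG, PCDHA11 and TCEAL5. ASPG encodes a cytoplasmic asparaginase. It had 0.94, 1.39 and 1.15 CPM in HAR123-KO and 2.07, 2.44 and 2.73 CPM (lowest, median, highest) in the replacements, which did not overlap (log2 fold change 1.04 ± 0.16 SE, adjusted p = 5.0e-05 in edgeR). Both the GC correction (log2 fold change 0.94) and leaving out HAR123-KO replicate 1 (0.93) brought ASPG under the fold threshold. Its hHAR123 level, 0.73 to 1.33 CPM, was that of HAR123-KO.

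PCDHA11 and TCEAL5 were called for the pooled side, but their level in cHAR123 was close to that in HAR123-KO. TCEAL5, an X-linked gene of a family related to elongation factor TFIIS, had 8.92 to 9.10 CPM in mHAR123, 0.20 to 0.26 CPM in cHAR123 and 0.20 to 0.69 CPM in HAR123-KO. Its pooled log2 fold change was 3.51 ± 0.90 (SE, adjusted p = 0.0075, edgeR), and the mHAR123 to cHAR123 difference was 5.29 (adjusted p = 5.7e-28). The cHAR123 and HAR123-KO libraries overlapped for TCEAL5, and its pooled call was lost when any 1 HAR123-KO or mHAR123 library was left out (adjusted p of 0.012 to 0.060). PCDHA11, a protocadherin of the clustered alpha group that gives neurons surface identities, had 21.04 to 23.1 CPM in mHAR123, 3.91 to 4.61 in cHAR123 and 2.73 to 3.57 in HAR123-KO. The mHAR123 libraries stood above both other genotypes with no overlap, and the mHAR123 to cHAR123 log2 difference was 2.34 (adjusted p = 8.6e-28). The hHAR123 libraries lay between, at 7.10 to 7.81 CPM for PCDHA11 and 1.02 to 1.36 CPM for TCEAL5. Leaving out any 1 HAR123-KO library moved the pooled PCDHA11 adjusted p from 0.0016 to at least 0.012. Alpha protocadherins share their last exons, so counting may not keep their reads apart. Of 15 alpha protocadherins tested, 3 were higher and 1 lower at adjusted p under 0.01, beside 3.54% and 4.67% of all genes tested. Their median log2 fold change was 0.01.

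Among the 21 lower genes, 9 had a symbol and a mean of at least 1 CPM. They comprised enzymes and transporters (ENPP2, GDA, SLC35A2), a kinase (PIM2), membrane and actin binding proteins (ANXA1, LCP1), a receptor transporter (RTP1), a lipid binding protein (SEC14L4) and CCDC169. ENPP2 encodes autotaxin, the secreted enzyme that makes lysophosphatidic acid. It had 4.54, 4.15 and 3.85 CPM in HAR123-KO and 0.70, 0.79 and 1.16 CPM (lowest, median, highest) in the replacements. The groups did not overlap, hHAR123 lay between them at 1.48 to 1.96 CPM, and the log2 fold change was -2.31 ± 0.15 (SE, adjusted p = 1.9e-12, edgeR). GDA, guanine deaminase, had 2.49, 2.24 and 2.27 CPM in HAR123-KO and 0.41 to 0.81 CPM in the replacements (log2 fold change -1.84 ± 0.19). For GDA, too, hHAR123 lay between, at 1.36 to 1.81 CPM and nearer HAR123-KO.

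LCP1, or L-plastin, bundles actin filaments and is best known from white blood cells. It had 28.5, 28.8 and 28.3 CPM in HAR123-KO and 12.4, 13.9 and 14.8 CPM (lowest, median, highest) in the replacements (log2 fold change -1.06 ± 0.05, adjusted p = 7.6e-15). Its hHAR123 level was lower again, 5.81 to 6.50 CPM, so the replacements lay between the other genotypes. ANXA1, a membrane binding protein of inflammation control, followed the same order, with 2.31, 2.28 and 1.999 CPM in HAR123-KO, 0.46 to 1.19 in the replacements and 0.27 to 0.65 in hHAR123 (log2 fold change -1.32 ± 0.19). LCP1 and ANXA1 were the 2 called members among all 29 gene lists examined, which were written with earlier results of these data known. Both are in the list of 51 axon guidance and migration genes, of which none was called higher. Over all genes tested 0.098% were called lower and 0.0933% higher. RTP1, which helps odorant receptors to the cell surface, had 1.67, 1.97 and 2.06 CPM in HAR123-KO and 0.41 to 0.81 in the replacements (log2 fold change -1.65 ± 0.19), with hHAR123 at 0.33 to 0.54 CPM.

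SEC14L4 and CCDC169 were lower in both replacements but by different amounts. SEC14L4 had 3.64, 4.15 and 3.51 CPM in HAR123-KO, 1.86 to 2.22 in mHAR123 and 0.65 to 0.75 in cHAR123. CCDC169 took the other order, with 10.2, 10.4 and 9.94 CPM in HAR123-KO, 5.39 to 6.39 in cHAR123 and 2.15 to 3.20 in mHAR123. None of the 3 genotypes overlapped for either gene, and mHAR123 differed from cHAR123 by a log2 of 1.47 for SEC14L4 (adjusted p = 9.2e-06) and of -1.14 for CCDC169 (adjusted p = 7.5e-09). CCDC169 and SOHLH2, a germ cell transcription factor gene, are neighbours on chromosome 13 with 7420 bases between them, and both were called lower. The annotated gene CCDC169-SOHLH2 overlaps both on the same strand, so their calls may not be separate. SPART, next to CCDC169, was lower by less (-0.40, adjusted p = 1.1e-05), while DCLK1 on the other side of the pair had -0.04 (adjusted p = 0.62).

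**Figure D2:**
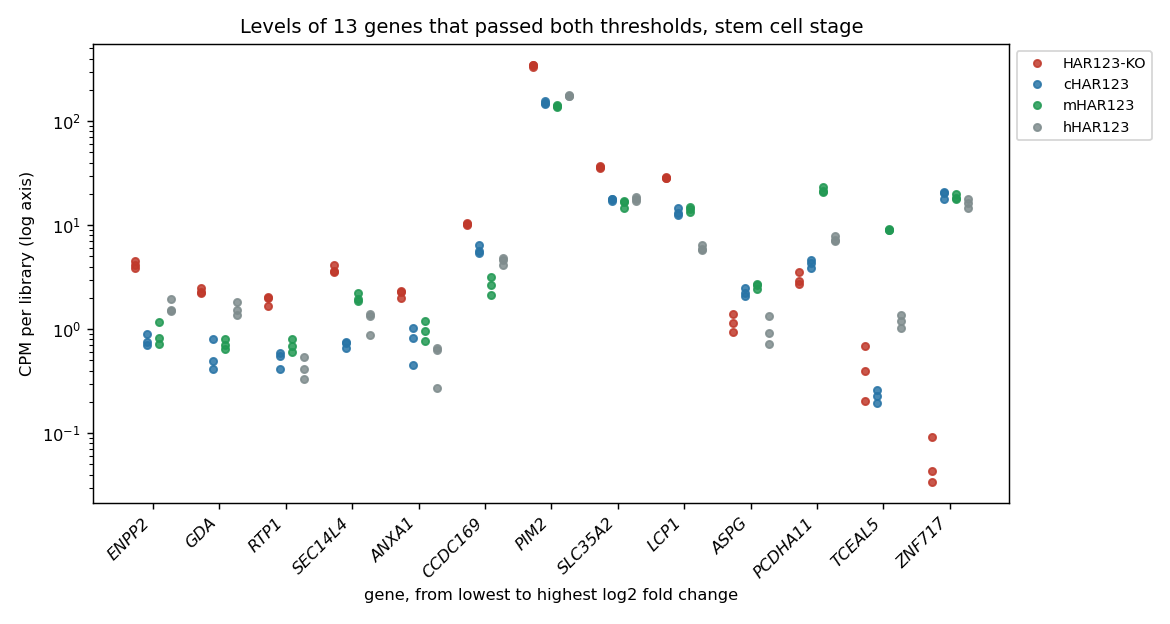
CPM in each of the 12 hESC libraries (log axis) of the 13 called genes with a symbol and a mean of at least 1 CPM, ordered by log2 fold change. Red points are HAR123-KO, blue cHAR123, green mHAR123 and grey hHAR123, 3 points each. ZNF717 is near 0 in HAR123-KO alone, at 0.03 to 0.09 CPM, and TCEAL5 and PCDHA11 are highest in mHAR123, followed by hHAR123.

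The clearest shared position was on the short arm of the X chromosome. PIM2 encodes a serine/threonine kinase that favours survival and growth, and it was the called gene with the highest level. It had 347, 348 and 334 CPM in HAR123-KO and 137, 145 and 155 CPM (lowest, median, highest) in the replacements. The groups were well apart, hHAR123 lay at 174 to 177 CPM, and the log2 fold change was -1.25 ± 0.03 (SE, adjusted p = 2.5e-23, edgeR). SLC35A2, the UDP-galactose transporter of the Golgi, starts 1224 bases past the end of PIM2. It had 35.9, 35.8 and 37.4 CPM in HAR123-KO and 14.7, 17.1 and 17.7 CPM in the replacements (log2 fold change -1.12 ± 0.05), with hHAR123 at 17.2 to 18.6 CPM. The CPM of SLC35A2 in mHAR123 replicate 3, 14.7, stood apart from the other 5 replacement libraries.

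With at least part of the gene within 300 kb of the PIM2 start, 23 genes were tested, and 6 were lower and 0 higher at adjusted p under 0.01 (edgeR), or 8 and 2 at an unadjusted p under 0.05. The window was placed around PIM2 after PIM2 and SLC35A2 had been called, so both are among the 6 by construction and the count is a description. Over all genes tested 4.67% were lower by that rule. The other 4, named after their values were seen, lay on the far side of OTUD5. TFE3, a transcription factor of lysosome and nutrient control, had 163, 153 and 159 CPM in HAR123-KO and 77.6, 82.0 and 82.7 CPM (lowest, median, highest) in the replacements (log2 fold change -0.97 ± 0.03). KCND1, a potassium channel subunit, had a log2 fold change of -0.89 ± 0.06, GRIPAP1, an endosomal protein, had a log2 fold change of -0.65 ± 0.04, and CCDC120, a centriolar protein, one of -0.75 ± 0.04. For these 6 genes no replacement library reached the HAR123-KO level, and mean hHAR123 levels were 17.9 (SLC35A2), 175 (PIM2), 9.09 (KCND1), 63.4 (GRIPAP1), 89.9 (TFE3) and 25.5 CPM (CCDC120), near the replacements. OTUD5, a deubiquitinase between PIM2 and KCND1, had a log2 fold change of 0.02 ± 0.04 (adjusted p = 0.79), and TIMM17B and PQBP1 on the other side had -0.04 and -0.11 (adjusted p of 0.68 and 0.070). SLC35A2 and PQBP1 overlap on opposite strands.

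**Figure D3:**
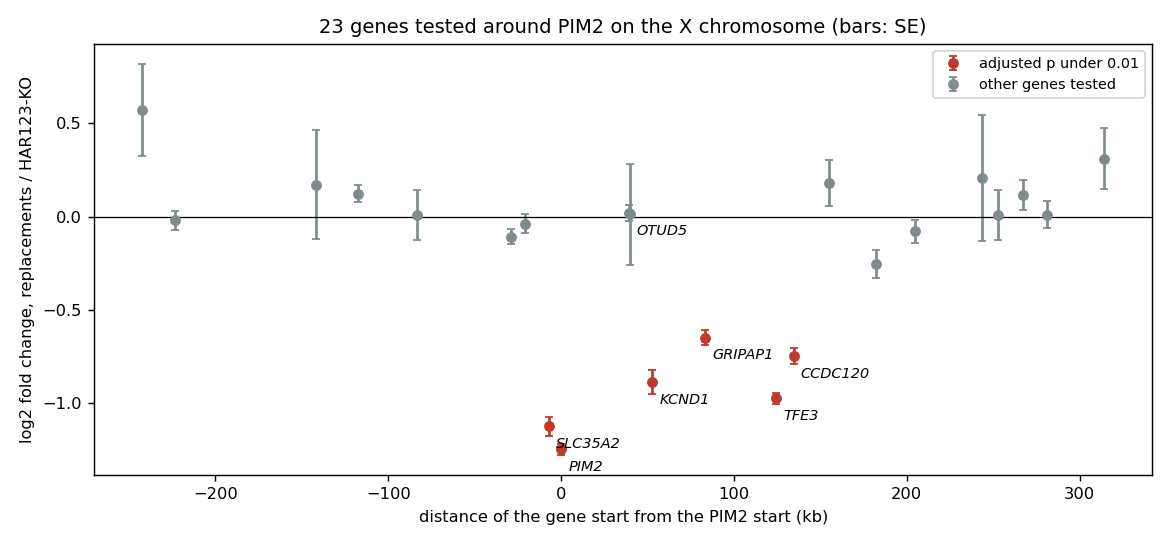
Log2 fold change of replacements against HAR123-KO with its standard error (vertical axis) for the 23 genes tested around PIM2, by distance of the gene start from that of PIM2 in kb (horizontal axis). Red points passed adjusted p under 0.01. The 6 red genes lie between -1.25 and -0.65, with OTUD5 at 0.02 among them.

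The remaining called genes had no symbol or a mean under 1 CPM. Lower in the replacements were SLC25A5P4, FIBIN, SOHLH2, ALG1L10P, FAM153A, GJD2 and 6 genes without a symbol. The largest decrease of all 41 was in one of these, ENSG00000226530, a long noncoding RNA gene of the X chromosome, with 2.06, 2.45 and 1.55 CPM in HAR123-KO and 0.07 to 0.30 CPM in the replacements (log2 fold change -3.44 ± 0.27). Higher were VSTM5, STRCP1, CTNS-AS1, SLC4A9, EFCC1, AZU1, ZNF536, CA15P1, CAMK1G, HAPLN2, SLC32A1, RUFY4, MUC2, EPB41L4A-DT, RBPJL and ENSG00000251600. Most of these 16 rested on few counts, with 0 to 22 counts per HAR123-KO library. For RBPJL and EPB41L4A-DT no HAR123-KO library held over 3 counts, and the depth-scaled ratios of pooled counts were 8.86 (95% counting interval 3.32 to 33.4) and 5.02 (2.18 to 14.2). FAM153A and the pseudogenes have near-identical copies and are uncertain. Over all 41 called genes, 11 higher and 8 lower overlap a gene on the other strand and are uncertain too, CTNS-AS1 with CTNS among them. The 8 lower include RTP1, SEC14L4, CCDC169, SLC35A2 and LCP1, described above. The share of all genes tested with such an overlap was not computed.

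The hHAR123 mean is given without a test, on log2(CPM + 0.1). By that measure it lay nearer the replacement mean than the HAR123-KO mean for 17 of 21 lower genes and 7 of 20 higher genes. The same share over all genes tested was not computed. Over the 16613 genes used for distances, hHAR123 libraries lay about as far from each genotype. The means were 29.1 from HAR123-KO, 28.9 from cHAR123 and 29.7 from mHAR123 libraries. For 10 of the lower genes, LCP1, ANXA1 and RTP1 among them, hHAR123 lay beyond the replacement mean. The higher genes with hHAR123 nearer to the replacement mean were ZNF717, PCDHA11, ZNF536, CAMK1G, SLC32A1, RUFY4 and EPB41L4A-DT. For PCDHA11 the replacement mean falls between cHAR123 (3.91 to 4.61 CPM) and mHAR123 (21.04 to 23.1 CPM). There hHAR123, at 7.10 to 7.81 CPM, lay nearer to cHAR123 than to mHAR123.

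Genes of the contractile apparatus and of YAP or SRF targets were lower together, most of them by small amounts. Of 26 members tested, 19 were lower and 0 higher at adjusted p under 0.01 in edgeR and in DESeq2, and 21 and 0 at an unadjusted p under 0.05 in edgeR. The share of all genes tested that was lower by the first rule was 4.67%. The list had a median log2 fold change of -0.20 against 0.01 over all genes, and all members stayed short of the fold threshold. Examples, named after their values were seen, are the skeletal actin ACTA1 and the actin binding protein TAGLN. ACTA1 had 56.0, 53.8 and 55.5 CPM against 28.1, 32.4 and 35.8 (log2 fold change -0.77 ± 0.05, adjusted p = 1.4e-12, edgeR). TAGLN had 141, 139 and 146 CPM against 88.2, 93.2 and 99.2 (log2 fold change -0.61 ± 0.03).

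For the 19 lower members, chosen here by the test on the same libraries, every HAR123-KO library lay above every replacement library, beside 16.2% of all genes tested whose sides did not overlap in either direction. Among the other members, log2 fold changes were ACTG2 at -0.70, MYL7 at -0.67, ACTC1 at -0.64, VIM at -0.45, CNN1 at -0.33, CALD1 at -0.27, MYL9 at -0.26 and CCN1 at -0.21, and CCN2 at -0.12 was the smallest of the 19. MYL7 was the least stable, with an adjusted p of 0.0070 that rose to 0.10 without HAR123-KO replicate 3. The 7 that did not pass were AXL, CNN2, TPM2, AMOTL2, LATS2, SRF and ACTA2, the last with 0.27 to 0.39 CPM in HAR123-KO and 0.11 to 0.74 in the replacements. The list's median against the HAR123-KO mean was -0.23 to -0.21 in the 3 cHAR123 libraries and -0.19 to -0.18 in the 3 mHAR123 libraries (log2(CPM + 0.1)). In hHAR123 it was -0.67 to -0.61, so the replacements lay between HAR123-KO and hHAR123, and for 17 of the 19 lower members the hHAR123 mean was below the replacement mean.
Measured against the median of its GC bin, the list's median was -0.21, and with the GC trend taken out 22 members were lower. The counts lower ran from 17 to 19 when a library was left out.

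**Figure D4:**
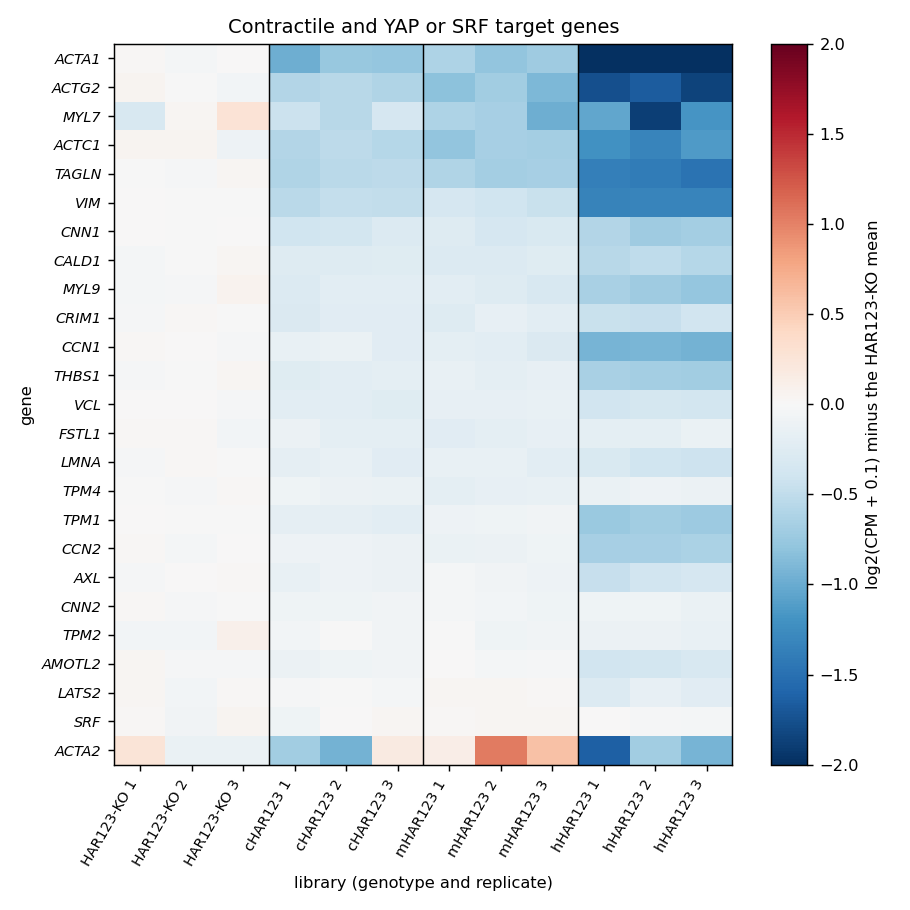
Heat map of log2(CPM + 0.1) minus the HAR123-KO mean for 25 of the 26 contractile and YAP or SRF target genes tested (rows, by log2 fold change) in the 12 hESC libraries (columns, by genotype). Blue is lower than HAR123-KO, red higher, and values beyond 2 in size are drawn at the end of the scale. The library medians of the list are -0.23 to -0.18 in the replacements and -0.67 to -0.61 in hHAR123.

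The promoters of 3 lower members with the CArG box, the SRF motif, are given as examples, with the box in capitals. It was searched as CC, then 6 bases each A or T, then GG, which reads the same on both strands.
ACTA1, chr1:229434105-229434344, minus strand: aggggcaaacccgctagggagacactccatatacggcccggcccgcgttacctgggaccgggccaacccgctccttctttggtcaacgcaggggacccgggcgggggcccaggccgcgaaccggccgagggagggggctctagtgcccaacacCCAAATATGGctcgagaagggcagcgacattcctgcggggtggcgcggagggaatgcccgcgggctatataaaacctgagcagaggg
ACTC1, chr15:34795550-34795799, minus strand: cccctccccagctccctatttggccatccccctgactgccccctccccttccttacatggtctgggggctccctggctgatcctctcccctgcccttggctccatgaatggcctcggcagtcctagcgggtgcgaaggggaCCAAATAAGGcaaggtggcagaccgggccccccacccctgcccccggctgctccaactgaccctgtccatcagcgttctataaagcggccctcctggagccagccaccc
MYL7, chr7:44141333-44141582, minus strand: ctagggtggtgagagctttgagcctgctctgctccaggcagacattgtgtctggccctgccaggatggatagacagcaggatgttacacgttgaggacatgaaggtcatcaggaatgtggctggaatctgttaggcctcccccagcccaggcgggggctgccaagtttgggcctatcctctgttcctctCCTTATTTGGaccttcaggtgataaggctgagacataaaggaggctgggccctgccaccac
Among the 21 list members with a RefSeq window, 7 held a CArG box in the 250 bases before the start, 5 of them among the 14 lower members with a window. Of all 35116 windows 1.16% held one. The list was written to include SRF targets, so a higher share follows from its choice and is no result of this comparison. SRF and CNN2 also held the box and did not pass the test.

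Cholesterol and heat shock genes had smaller differences. Of 30 cholesterol and fatty acid synthesis genes, 10 were lower and 0 higher, beside 4.67% and 3.54% of all genes tested (edgeR, 14 and 1 at an unadjusted p under 0.05; 13 and 0 in DESeq2), with a median of -0.07, among them the pathway enzymes HMGCS1 (-0.24 ± 0.03), IDI1 (-0.23 ± 0.04) and SQLE (-0.16 ± 0.03). HMGCS1 had 320, 331 and 304 CPM in HAR123-KO and 257, 272 and 290 CPM (lowest, median, highest) in the replacements, which did not overlap. Of 22 heat shock chaperones, 6 were lower and 0 higher, beside the same shares of all genes (edgeR, 4.67% and 3.54%; 8 and 2 at an unadjusted p under 0.05; 7 and 0 in DESeq2), led by HSPE1 (-0.24) and HSPA8 (-0.22), which had 1756, 1755 and 1704 CPM against 1467, 1506 and 1539. With the GC trend taken out 14 cholesterol genes and 3 heat shock genes were lower.

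Core pluripotency genes moved little. Of 28, 2 were higher (TERT at 0.25 and ZIC2 at 0.20) and 8 lower, among them TDGF1 at -0.16, DNMT3B at -0.13 and ESRG at -0.10. Over all genes tested 3.54% were higher and 4.67% lower, and at an unadjusted p under 0.05 the list had 3 higher and 17 lower. The count of lower members fell to 4 without HAR123-KO replicate 2. POU5F1 had 1058, 1052 and 1064 CPM in HAR123-KO and 1056, 1093 and 1111 CPM (lowest, median, highest) in the replacements (log2 fold change 0.03 ± 0.02, adjusted p = 0.36). NANOG had -0.07 ± 0.03 (adjusted p = 0.13) and SOX2 0.00 ± 0.03 (adjusted p = 0.99).

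Of the signalling lists, 4 of 20 Notch genes were higher and 0 lower, beside 3.54% and 4.67% of all genes tested (edgeR, 9 and 1 at an unadjusted p under 0.05), HEY2, a target of the pathway, by 0.75 ± 0.10, MFNG by 0.58, the ligand DLL3 by 0.25 and NOTCH1 by 0.13. HEY2 had 6.04, 6.53 and 7.30 CPM in HAR123-KO and 9.22 to 13.2 CPM in the replacements, with hHAR123 at 12.2 to 12.6. The Notch count fell to 1 without HAR123-KO replicate 2 and to 2 without replicate 3 or with the GC trend taken out, which left 1 gene lower. Of 21 BMP genes 4 were lower and 1 higher, beside 4.67% and 3.54% of all genes tested, and 6 and 5 at an unadjusted p under 0.05. BMP4, a ligand that promotes differentiation, had 5.31, 4.49 and 4.42 CPM in HAR123-KO and 2.74, 3.33 and 3.89 CPM in the replacements (log2 fold change -0.49 ± 0.11, adjusted p = 0.0028), which did not overlap. Its adjusted p rose to 0.034 without HAR123-KO replicate 1 and to 0.011 without replicate 2.

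Genes near HAR123 showed no called difference. Of 15 genes tested at the 17p13.3 locus, 1 was higher (SGSM2 at 0.21) and 2 lower (METTL16 at -0.13, TSR1 at -0.12) at adjusted p under 0.01, beside 3.54% and 4.67% of all genes tested, and 3 were higher and 5 lower at an unadjusted p under 0.05. SMG6, the host gene and an endonuclease of nonsense-mediated decay, had 70.5, 71.8 and 71.0 CPM in HAR123-KO and 65.0, 67.3 and 70.9 CPM in the replacements (log2 fold change -0.08 ± 0.03, adjusted p = 0.10). With the GC trend taken out its adjusted p was 0.0084 at -0.11. HIC1, a transcriptional repressor, was too low to be tested in hESCs, at 0.17 to 0.27 CPM in HAR123-KO and 0 to 0.20 CPM in the replacements. It had 4, 8 and 7 counts in HAR123-KO, 2, 5 and 6 in cHAR123 and 0, 0 and 1 in mHAR123. The hHAR123 libraries had 9, 10 and 5 counts. In neuroectoderm the log2 fold change of HIC1 was -0.03 ± 0.31 (adjusted p = 0.95, edgeR). Of 16 nonsense-mediated decay factors 0 passed adjusted p under 0.01 in edgeR and 8 were lower at an unadjusted p under 0.05, with log2 fold changes of -0.17 to 0.04. FOXD3, a factor of pluripotency and neural crest, had 37.5, 36.3 and 38.0 CPM against 32.9, 34.6 and 36.0 (log2 fold change -0.12 ± 0.04, adjusted p = 0.063), and -0.23 with the GC trend taken out (adjusted p = 0.00033).

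The pooled side held differences of its own. Between mHAR123 and cHAR123, 33 of 20950 genes were called (0.158%), 15 higher (0.0716%) and 18 lower (0.0859%) in mHAR123. By adjusted p alone 91 were higher (0.434%) and 73 lower (0.348%), 0.783% in all. The 18 lower include copies of the same ribosomal RNA gene with the same or nearly the same counts, so they are not 18 separate differences. RNA5-8SN2 and RNA5-8SN3, for example, each had 53, 49 and 47 counts in cHAR123 and 31, 26 and 13 in mHAR123. H4C13, a histone H4 gene, had 1.27 to 2.10 CPM in cHAR123 and 69.4 to 72.1 in mHAR123, with HAR123-KO at 68.0 to 71.7. LINC01090 and LINC01515, both noncoding, had at most 0.23 and 0.78 CPM in cHAR123 and at least 8.18 and 20.97 in mHAR123. The log2 differences were 5.34 (H4C13), 6.15 (LINC01090), 5.29 (LINC01515) and 2.53 (ZNF385D-AS1). Lower in mHAR123 were TRIM58 (-2.10), ALG10B (-1.80), CYTL1 (-1.69), the mitochondrial ribosomal RNA MT-RNR1 (-1.45), whose level ribosomal RNA depletion also sets, and the protocadherin PCDHGA11 (-1.44).  Taken alone against the same 3 HAR123-KO libraries, cHAR123 had 17 genes higher (0.0823%) and 39 lower (0.189%), 0.271% of 20659. mHAR123 had 21 higher (0.1%) and 30 lower (0.143%), 0.244% of 20926. By adjusted p alone cHAR123 had 3.81% higher and 4.28% lower (8.09%), and mHAR123 3.06% and 3.84% (6.91%).

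In neuroectoderm, the same contrast called 1568 of 21830 genes (7.18%), 777 higher (3.56%) and 791 lower (3.62%), and 35.4% passed adjusted p alone. Of the 41 genes called in hESCs 29 were tested there. For 15 lower genes, 14 had the same sign and 8 were called in the same direction. Those 8 were ENPP2, GDA, LCP1, FIBIN, SLC25A5P4 and 3 without a symbol. ENPP2 had 55.2 to 58.0 CPM in HAR123-KO neuroectoderm and 10.5 to 15.2 in the replacements (log2 fold change -2.17 ± 0.07, adjusted p = 2.4e-17), a level over 10 times that in hESCs with nearly the same fold change. For 14 higher genes, 9 had the same sign and 3 were called (ZNF717, SLC32A1 and ENSG00000251600). None of the 29 was called in the opposite direction.

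The stage difference was tested as an interaction over 18 libraries, which called 1247 of 23858 genes (5.23%), 495 with a positive (2.07%) and 752 with a negative difference (3.15%). By adjusted p alone it was 11.9% and 12.1% (23.9%). Of the 41, 6 were called, all higher in the replacements in hESCs: EFCC1, ZNF536, STRCP1, CTNS-AS1, CA15P1 and EPB41L4A-DT. ZNF536, a neural zinc finger gene, had a log2 fold change of 1.57 in hESCs and -0.96 in neuroectoderm (interaction adjusted p = 8.3e-06). PIM2 narrowed from -1.25 to -0.29, as its level fell to 16.8 to 17.6 CPM in HAR123-KO neuroectoderm (interaction 0.97, adjusted p = 5.4e-11). SLC35A2 (-0.93), KCND1 (-0.42), GRIPAP1 (-0.62) and TFE3 (-0.70) were lower in neuroectoderm at adjusted p under 0.01 (edgeR). PIM2 and CCDC120 (-0.20) fell just short there, at 0.011 each. The interaction passed adjusted p under 0.01, toward a smaller difference, for KCND1 (0.48), TFE3 (0.29) and CCDC120 (0.56) too. It did not for SLC35A2 and GRIPAP1.

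The contractile list turned over. In neuroectoderm 13 of 24 members tested were higher in the replacements and 2 lower, with a median of 0.38 against 0.00 over all genes, beside 16.8% higher and 18.6% lower over all genes tested. ACTA1 went from -0.77 in hESCs to 2.12 (interaction adjusted p = 2.9e-10) and CCN1 from -0.21 to 1.36 (5.6e-15), while VIM stayed lower at -0.57. The interaction passed adjusted p under 0.01 in the direction of neuroectoderm for 21 of 27 members and in the other for 1. BMP4 went further down, from -0.49 to -2.93 (interaction adjusted p = 3.4e-15). Among genes with a symbol and a mean of at least 1 CPM, PAX7, RSPO3, CPED1, RAB7B and LMX1B-DT had the largest negative stage differences. VWA2, MIR9-1HG, NEUROG2, LINC00404 and MYH2 had the largest positive ones. Most of these genes were under 1 CPM in hESCs, and several rest on few counts. RSPO3, RAB7B and LMX1B-DT had 0 counts in every HAR123-KO hESC library. NEUROG2 had 2, 0 and 2 counts there and 0 in the replacements, and its interaction of 4.70 stood beside 1.14 in neuroectoderm. VWA2 had 0 CPM in HAR123-KO neuroectoderm and 0.08 to 0.40 CPM in the replacements.

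**Figure D5:**
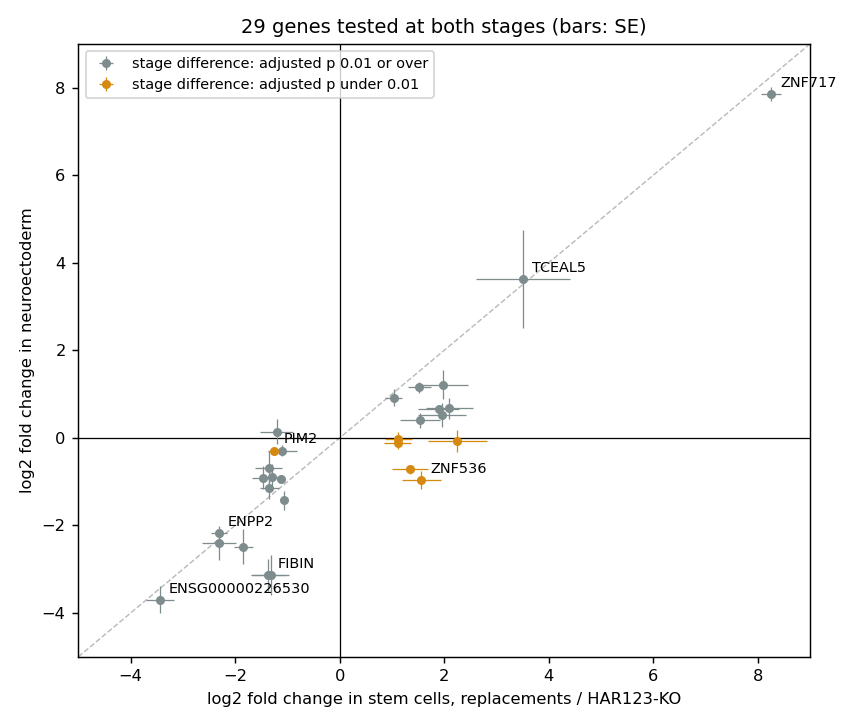
Log2 fold change of replacements against HAR123-KO in hESCs (horizontal axis) and neuroectoderm (vertical axis), with standard errors, for the 29 called genes tested at both stages. Orange genes passed adjusted p under 0.01 for the stage difference, and the dashed line marks equal values. ZNF717 (8.25 and 7.85) and ENPP2 (-2.31 and -2.17) lie near the line, while ZNF536 (1.57 and -0.96) changes sign.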

How the data were processed

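Ribosomal RNA was depleted from total RNA of H9 cells, directional libraries were sequenced as read pairs, and per the submitters' processing notes reads were aligned to GRCh38 with STAR 2.5.2b. The authors deposited raw counts per Ensembl gene from featureCounts, with no normalization, and whether counting used strand is not given in the sources used here. The table held 61552 genes, of which 1 entry broken over 3 lines was left out, and 61398 of the remaining 61551 were found in GENCODE (95.8% with identical coordinates).

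Groups came from the labels. Counts were tested in R 4.3.3 with edgeR 4.0.16 (filterByExpr, TMM, quasi-likelihood F test, Benjamini-Hochberg over all genes tested), which was tested on simulated data, and 6 comparisons were fitted, each on its own libraries. Standard errors were taken from each fold change and its F statistic (log2 change over root F). CPM are counts scaled to the library total. Depth was 23334732 to 34492989 counts per library, a gene without counts can be present at up to 3, and this bound covers counting error only. Libraries of one group differed by more than sampling noise (chi-square of 1.57 to 4.97 per degree of freedom) and all were kept.

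Alternatives were DESeq2 1.42.0 (the authors' tool), DESeq2 size factors, no filter on low counts, blocking on the replicate number, no fold threshold, an adjusted p of 0.05, one fit over all 12 libraries of a stage, cHAR123 and mHAR123 as separate groups, and each library left out. Added after seeing the data were DESeq2 without independent filtering, a lowess trend of each library with gene GC content (longest transcript, 99.8% of genes tested) taken out through offsets, and the counts of list members under each alternative. Named genes were, among called genes that have a symbol and average 1 CPM or more, the 10 largest in each direction (5 for mHAR123 against cHAR123 and for the stage difference), called genes at 3 counts or fewer on one side, 3 called members per list, and HIC1, SMG6, LOC101927839, FOXD3, BMP4, POU5F1, NANOG and SOX2. LOC101927839 was not matched to a gene of the table. Some named genes are not reported here. Members and lists were chosen with earlier results of these data known.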

Additional observations from a re-analysis of the deposited data

Results flagged for a closer look

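For 2 of the 41 called genes, 1 of the 6 replacement libraries lay apart from the rest of its side, by Dixon's criterion for 6 values. SLC35A2 had 14.7 CPM in mHAR123 replicate 3, and RBPJL had 0.667 CPM in mHAR123 replicate 2. By chance about 1 group in 20 is marked in this way, and 41 were checked.

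The effect differed between the orthologs, by the test of mHAR123 against cHAR123 in hESCs (edgeR, adjusted p under 0.01), for 4 called genes. The log2 differences were 5.29 for TCEAL5, 2.34 for PCDHA11, 1.47 for SEC14L4 and -1.14 for CCDC169. For the first pair the pooled difference rests on mHAR123.

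The effect differed between stages, by the interaction test, for 7 called genes. The interaction (neuroectoderm minus hESCs, log2) was -2.51 for ZNF536, -2.30 for EPB41L4A-DT, -2.18 for CA15P1, -2.06 for EFCC1, -1.21 for STRCP1, -1.13 for CTNS-AS1 and 0.97 for PIM2. In the contractile list it passed in the positive direction for 21 members.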

How the results depend on the processing

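No named log2 fold change that passed its thresholds changed sign under any alternative, and 17 of the 41 called genes kept their call under every alternative that gave them a value, ENPP2, GDA, RTP1, ANXA1, CCDC169, PIM2, SLC35A2, LCP1 and ZNF717 among them. For replacements against HAR123-KO in hESCs, 20 higher and 21 lower genes became 51 higher at an adjusted p of 0.05, and 759 and 1001 without a fold threshold. DESeq2 gave 2 and 7, and 9 higher without independent filtering. With independent filtering it gave no adjusted p for 30 of the 41 genes, GDA, RTP1 and ANXA1 among them. Leaving out a library gave 11 to 22 higher and 16 to 25 lower, with 12 higher without HAR123-KO replicate 1 and 11 without replicate 2. cHAR123 alone had 51 higher and 60 lower at 0.05, 788 and 884 without a fold threshold, 3 and 16 in DESeq2, and 9 to 19 and 31 to 37 with a library left out (10 higher without HAR123-KO replicate 2, 9 without cHAR123 replicate 3). mHAR123 alone had 54 higher at 0.05, 641 and 804 without a fold threshold, 9 and 11 in DESeq2, and 15 to 30 and 20 to 29 with a library left out. Between mHAR123 and cHAR123, 91 and 73 passed without a fold threshold and 10 lower in DESeq2. Without a fold threshold neuroectoderm had 3673 and 4061 and the stage difference 2832 and 2877. DESeq2 called 1 list member lower in place of 2. The contractile count stayed at 17 to 22 of the list lower.

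The replicate number as a block gave 18 higher and 17 lower genes for the pooled comparison, 35 of them among the 41. Deviations of same-numbered libraries correlated at -0.14 to 0.04, and those of differently numbered libraries at -0.12 to 0.13. HAR123-KO replicate 2, cHAR123 replicate 1 and mHAR123 replicate 3 correlated with one another at 0.12 to 0.13. A block on the replicate number cannot take up deviations shared across numbers. The block moved no count of calls by over 1.5 times.

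The limits are depth and group size. HAR123-KO had 3 libraries, and 25 of the 41 genes lie under 1 CPM, where a few counts set the fold change.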

Other observations

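Among lists not described above, immediate early genes had 4 members lower (FOSB at -0.76, FOS at -0.51, JUN at -0.39, KLF6 at -0.17) and 1 higher (EGR1 at 0.40) of 17 tested at adjusted p under 0.01, beside 4.67% and 3.54% of all genes tested, and 6 lower and 4 higher at an unadjusted p under 0.05. Extracellular matrix and adhesion genes were divided, with 4 of 36 higher (COL1A2 at 0.28 the largest) and 5 lower (CDH2, N-cadherin, at -0.25), or 10 and 11 at an unadjusted p under 0.05. INHBA, a subunit of activin, had a log2 fold change of -0.73 (adjusted p = 0.0019, edgeR), with the adjusted p rising to 0.015 without HAR123-KO replicate 2 and 0.019 without replicate 3. Of 6 metallothionein genes 0 passed adjusted p under 0.01 in edgeR and 4 were higher at an unadjusted p under 0.05, with a median log2 fold change of 0.46.

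By chromosome, the share of genes at adjusted p under 0.01 ran from 5.70% on X to 10.3% on 19, beside 8.21% of all genes tested. On chromosome 19, 118 were higher and 29 lower. The GC trend described above was not taken out of these chromosome counts, so position and GC content were not told apart. Chromosome 13 held 4 of the 21 lower called genes among 398 tested, beside 0.098% of all genes tested that were called lower. CCDC169 and SOHLH2, whose calls may not be separate, are among the 4.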
